A study of Rattus norvegicus with 15 samples.

Results

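Drug transporters of the blood-brain barrier, 10 genes in all, were followed in the inferior colliculus (IC) of the Wistar Audiogenic Rat (WAR) and the Wistar rat. These are the ABC efflux pumps *Abcb1a*, *Abcb1b*, *Abcg2*, *Abcc1*, *Abcc4* and *Abcc5* and the organic anion transporters *Slco1a4*, *Slco1c1*, *Slco2b1* and *Slc22a8*. They were chosen by gene symbol and are 10 of the 14506 genes that the arrays read under a single symbol. All 10 were measured, by 12 probe sets, and of the 3 probe sets of *Abcc4* the brightest was used. RNA came from the IC, a midbrain auditory nucleus, of male rats aged 12 weeks and weighing about 230 g. WAR animals, bred from Wistar rats for seizures evoked by loud sound, were sampled 60 min after acoustic stimulation (WAR S, 5 arrays) or without exposure to it (WAR N, 4 arrays). Wistar albino rats, which carry no such selection, were sampled after the same stimulation (Wistar S, 2 arrays) or without it (Wistar N, 4 arrays). The study describes its stimulated WAR profile as taken after sound-induced seizures and its stimulated Wistar controls as free of seizures. Strain and seizure therefore cannot be told apart between WAR S and Wistar S, and seizure also enters the difference between the strain effects. By the sample labels, the Wistar rats were from Charles River Laboratories and the WAR animals from the School of Medicine of Ribeirão Preto, and by these labels strain and supplier cannot be told apart. The study's methods differ from the labels here and name a single animal facility for both strains. Each array is titled as a biological replicate, but no source states whether it held the RNA of a single rat, so the p-values measure only the spread between these arrays.

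Brain capillaries are lined by endothelial cells joined by tight junctions, and a drug in the blood must cross these cells to reach the brain. ABC pumps spend ATP to move compounds out of the endothelial cell, most of them back to the blood, and the P-glycoprotein encoded by *Abcb1a* and *Abcb1b* in rodents and the breast cancer resistance protein encoded by *Abcg2* carry a wide range of drugs. Several antiseizure drugs have been described as substrates of P-glycoprotein. The organic anion transporters of the Slco and Slc22 families need no ATP and exchange hormones, conjugates and drugs across the same membranes.

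The promoter windows of 4 genes are shown because their genes had the largest strain differences (*Abcb1a*, *Abcg2*, *Slco1a4*) or form a pair of copies of the same pump (*Abcb1b* with *Abcb1a*). Each is the 250 bases before the annotated start, from RefSeq on the rat assembly GRCr8, written 5′ to 3′ on the strand of the gene. The windows are chr4:26397649-26397898 on the minus strand for *Abcb1a*, chr4:26280030-26280279 on the minus strand for *Abcb1b*, chr4:89075224-89075473 on the plus strand for *Abcg2* and chr4:176495847-176496096 on the minus strand for *Slco1a4*. Capitals mark matches on either strand to any of 3 motifs. The GC box was searched as GGGCGG and the AP-1 site as TGACTCA. The remaining motif was the CCAAT box.
Abcb1a: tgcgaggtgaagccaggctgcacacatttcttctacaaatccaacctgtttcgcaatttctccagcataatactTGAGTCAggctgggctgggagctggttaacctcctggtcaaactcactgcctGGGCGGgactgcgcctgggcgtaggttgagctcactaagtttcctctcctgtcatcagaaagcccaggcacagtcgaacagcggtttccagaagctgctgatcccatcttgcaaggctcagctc
Abcb1b: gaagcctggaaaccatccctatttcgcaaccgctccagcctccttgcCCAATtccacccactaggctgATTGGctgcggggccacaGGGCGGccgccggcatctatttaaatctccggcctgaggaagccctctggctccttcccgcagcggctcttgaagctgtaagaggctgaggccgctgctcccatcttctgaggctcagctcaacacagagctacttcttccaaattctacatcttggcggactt
Abcg2: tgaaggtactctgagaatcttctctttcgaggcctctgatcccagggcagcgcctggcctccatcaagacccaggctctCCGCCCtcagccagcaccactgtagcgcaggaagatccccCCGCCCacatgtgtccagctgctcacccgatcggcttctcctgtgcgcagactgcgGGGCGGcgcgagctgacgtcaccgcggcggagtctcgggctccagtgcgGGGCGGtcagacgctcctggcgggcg
Slco1a4: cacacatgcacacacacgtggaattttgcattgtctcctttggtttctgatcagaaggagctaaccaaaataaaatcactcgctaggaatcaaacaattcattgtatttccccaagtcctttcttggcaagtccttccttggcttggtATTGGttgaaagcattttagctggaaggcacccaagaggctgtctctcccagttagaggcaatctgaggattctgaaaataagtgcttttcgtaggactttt
The windows differed in these letters. That of *Abcg2* held 4 GC boxes and no CCAAT box, that of *Slco1a4* 1 CCAAT box and no GC box. *Abcb1b* had 2 CCAAT boxes and 1 GC box, and *Abcb1a* had 1 GC box, at position -124, and 1 AP-1 site, at -176, positions being counted back from the start. The longest run shared by the *Abcb1a* and *Abcb1b* windows was AGGCTCAGCTC, 11 bases that end at the start in *Abcb1a* and lie from -54 to -44 in *Abcb1b*. A promoter entry was at hand for 8 of the 10 genes (all but *Abcc5* and *Slco1c1*). A GC box was found in 5 of these 8 and in 30.5% of 33469 rat promoters of the same length, a CCAAT box in 2 of 8 and in 34%, and an AP-1 site in 1 of 8 and in 4.05%. These matches describe letters only, and no factor was measured at them. On the assembly, 5 of the 10 genes lie on chromosome 4 (*Abcb1a*, *Abcb1b*, *Abcg2*, *Slco1a4* and *Slco1c1*), 2 on chromosome 1 (*Slco2b1* and *Slc22a8*), and *Abcc1*, *Abcc4* and *Abcc5* on chromosomes 10, 15 and 11.

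Values are log2 of the probe set signal after RMA. Stimulated and naïve arrays were taken as normalized apart, since 2675 to 3286 probe sets held identical values in each pair of stimulated arrays, 2 to 13 did in each pair of naïve arrays and none did between a stimulated and a naïve array, and strains were therefore compared only within each. Wistar N replicate 1 stood apart, with a mean of 7.91 over 24 endothelial genes against 7.05 to 7.16 in the other Wistar N arrays, and without it 5968 genes passed the test between the naïve strains in place of 3037. By the running numbers of the labels, the arrays fall into a first set, in which no number repeats, and a second one without Wistar S arrays, which no source names as batches. Wistar N replicate 1 is in the first set. By mean signal among all genes, the neuron genes *Slc17a6*, *Gad2*, *Gad1* and *Slc32a1* were at percentiles 97, 95.5, 92.8 and 62.6, and the cerebellar genes *Cbln3*, *Pcp2* and *Gabra6* at 43.1, 32.6 and 15.3.

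In naïve rats, 4 of the 10 transporter genes were overexpressed in WAR and none was underexpressed, at an adjusted p of 0.05 from limma over all genes. At that threshold 20.9% of all genes passed, 11.6% as higher in WAR. The 4 were the pumps *Abcb1a*, *Abcg2* and *Abcc4* and the organic anion transporter *Slco1a4*. After stimulation, 1 of the 10 passed, *Abcb1a*, where 0.414% of all genes did and 0.214% as higher in WAR. The 10 log2 differences had a median of 0.34 in naïve and 0.23 in stimulated arrays, beside 0.02 and 0.01 over all genes, and 9 and 7 of the 10 were above 0, where *Abcc1* after stimulation and *Abcc5* in both lay near 0 and changed sign with the settings. The plot of values by array shows each gene in all 15 arrays.

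**Figure D1:**
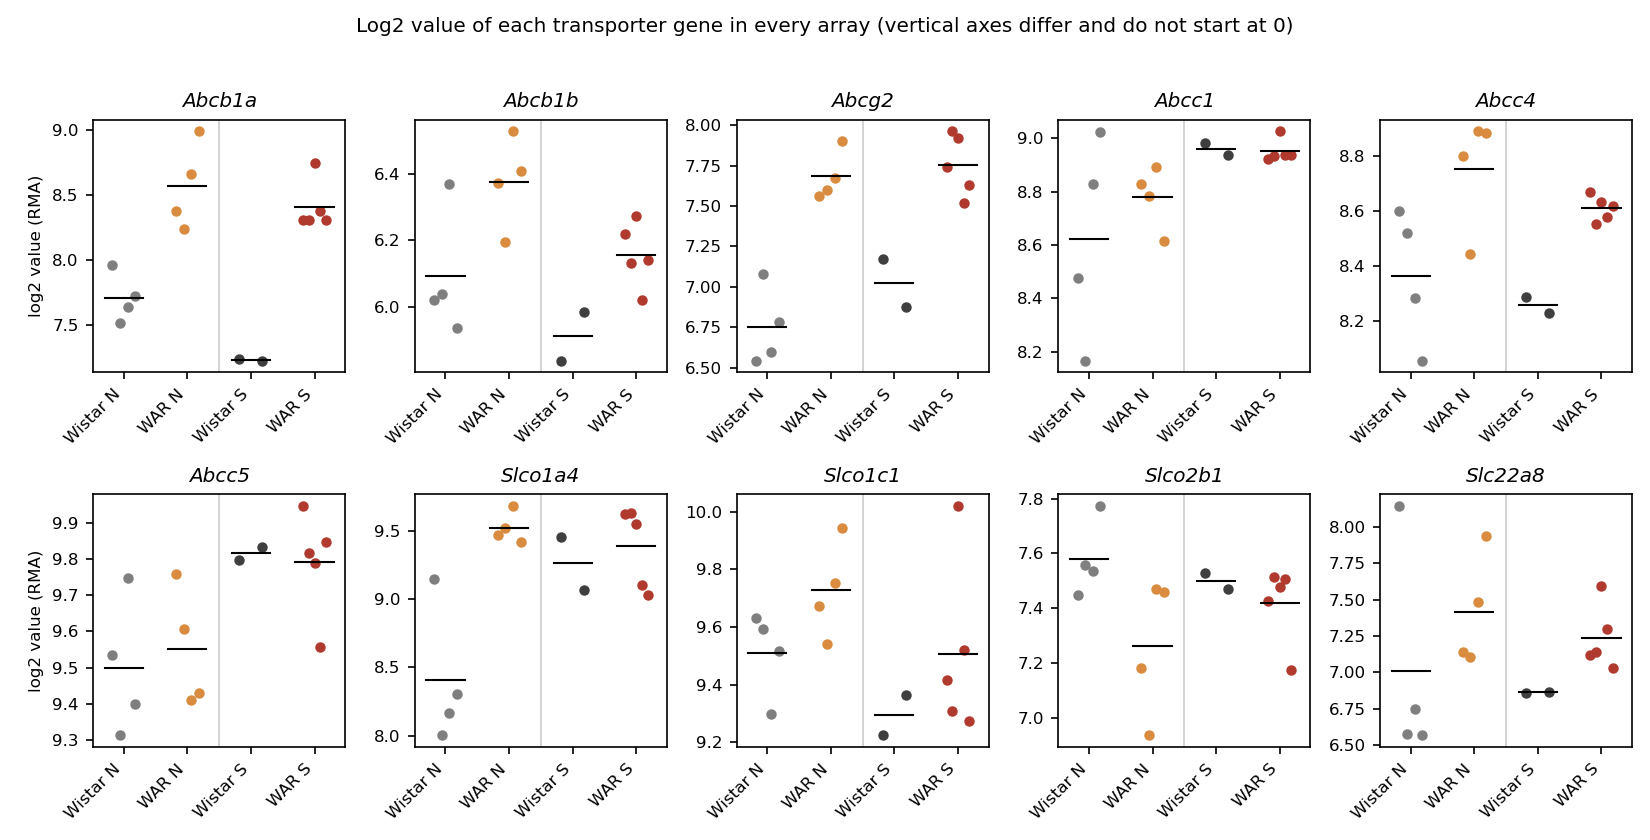
Log2 value (RMA) of each of the 10 transporter genes in every array, with a point per array, a line at the group mean, and naïve groups to the left of the grey line and stimulated groups to the right, on vertical axes that differ and do not start at 0. All WAR points of *Abcb1a* lie above all Wistar points of the same side, those of *Abcg2* too, and those of *Slco1a4* do so only on the naïve side.

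*Abcb1a* encodes the main P-glycoprotein of rodent brain capillaries. Its log2 value was 7.23 and 7.22 in the 2 Wistar S arrays and 8.31, 8.31, 8.74, 8.38 and 8.31 in WAR S replicates 1 to 5. Every WAR S array lay above both Wistar S arrays by more than the spread within either group. The difference was 1.18 (SE 0.18, 95% confidence interval 0.80 to 1.56, adjusted p = 0.0109 from limma), a 2.27-fold higher level, and the two-sided exact permutation p was 0.0476, the smallest that 5 against 2 arrays can give. The call was lost without either Wistar S array (adjusted p = 0.133 without replicate 1 and 0.283 without replicate 2 from limma), with a log2 fold change of 1.19 and 1.18. Within the first label set it was 1.08 (adjusted p = 0.0170 from limma).

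In naïve rats, *Abcb1a* was 7.96, 7.51, 7.64 and 7.72 in Wistar N and 8.38, 8.24, 8.66 and 8.99 in WAR N. The groups again did not overlap, although the highest Wistar N value, of replicate 1, came closest to the WAR N range. WAR N was higher by 0.86 (SE 0.15, 95% confidence interval 0.54 to 1.18, adjusted p = 0.0023 from limma), and the exact permutation p was 0.0286, the smallest possible for 4 against 4 arrays. The label sets gave unlike sizes, 0.47 in the first (adjusted p = 0.0737 from limma) and 1.25 in the second (adjusted p = 0.0028 from limma), with 2 arrays of each strain in each. Wistar N replicate 1 was 1 of the 2 Wistar N arrays of the first set, and its part in these sizes was not tested. The difference between the strain effects of stimulated and naïve rats was 0.32 (95% confidence interval -0.18 to 0.82) and did not pass.

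*Abcb1b*, the second rodent P-glycoprotein gene and the neighbour of *Abcb1a* on chromosome 4, had small differences. By mean signal among all genes it was at percentile 25.6, where *Abcb1a* was at 56.4. *Abcb1b* was 5.84 and 5.99 in Wistar S and 6.22, 6.13, 6.27, 6.02 and 6.14 in WAR S, so the groups did not overlap, by a narrow margin. A log2 fold change of 0.24 (SE 0.12) had an exact permutation p of 0.0476 and did not pass in limma (adjusted p = 0.748). In naïve rats it was 6.02, 6.04, 6.37 and 5.94 in Wistar N and 6.37, 6.19, 6.53 and 6.41 in WAR N, where the groups overlapped through WAR N replicate 2. That difference, 0.28 (SE 0.10), lay just outside the threshold (adjusted p = 0.0551 from limma), and it passed in 5 of 18 alternative settings. Whether its probes also take up *Abcb1a* transcripts was not tested.

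*Abcg2* encodes the breast cancer resistance protein, which shares many substrates with P-glycoprotein. In naïve rats it was 6.54, 7.08, 6.60 and 6.78 in Wistar N and 7.56, 7.60, 7.67 and 7.90 in WAR N. No Wistar N array reached the WAR N range. WAR N was higher by 0.93 (SE 0.13, adjusted p = 0.0008 from limma), a 1.91-fold higher level, and it was 0.92 and 0.95 in the 2 label sets. It passed in all 18 alternative settings. In stimulated rats, *Abcg2* was 7.17 and 6.87 in Wistar S and 7.74, 7.96, 7.92, 7.52 and 7.63 in WAR S, again with no overlap. The log2 fold change of 0.73 (SE 0.16, 95% confidence interval 0.40 to 1.06) did not pass after adjustment (adjusted p = 0.0607 from limma, exact permutation p = 0.0476). The difference between the strain effects was -0.20 (95% confidence interval -0.64 to 0.23).

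The multidrug resistance-associated proteins, of the Abcc family, export conjugates and signalling molecules. *Abcc4*, a carrier of cyclic nucleotides and prostaglandins, was 8.60, 8.52, 8.28 and 8.05 in Wistar N and 8.80, 8.44, 8.89 and 8.89 in WAR N. The groups overlapped through WAR N replicate 2. The log2 fold change of 0.39 (SE 0.12) passed (adjusted p = 0.0294 from limma) and no longer did in 8 of 20 alternative settings, with adjusted p up to 0.486. In stimulated rats, *Abcc4* was 8.29 and 8.23 in Wistar S and 8.67, 8.55, 8.63, 8.58 and 8.62 in WAR S, without overlap, and its log2 fold change of 0.35 (SE 0.14) did not pass (adjusted p = 0.541 from limma). Its 3 probe sets disagreed in size, with log2 differences of 0.39, 0.66 and 0.20 in naïve and 0.35, 0.32 and 0.03 in stimulated rats, given in order from the brightest.

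*Abcc1*, a pump of glutathione conjugates and leukotrienes, and *Abcc5*, a pump of cyclic nucleotides, showed overlapping strains in both comparisons. *Abcc1* was 8.98 and 8.94 in Wistar S and 8.92 to 9.03 in WAR S, and 8.17 to 9.02 in Wistar N and 8.62 to 8.89 in WAR N. Its log2 fold changes were -0.01 (95% confidence interval -0.36 to 0.34) and 0.16 (-0.14 to 0.45). *Abcc5* was 9.80 and 9.83 in Wistar S and 9.56 to 9.95 in WAR S, and 9.31 to 9.75 in Wistar N and 9.41 to 9.76 in WAR N. Its log2 fold changes were -0.02 (95% confidence interval -0.30 to 0.25) and 0.05 (-0.18 to 0.28), and both intervals leave out a doubling in either direction, as do those of *Abcc1*.

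*Slco1a4* encodes the organic anion transporting polypeptide found on both faces of the rodent capillary endothelium, a carrier of steroid conjugates and digoxin. In naïve rats it was 9.15, 8.00, 8.16 and 8.30 in Wistar N and 9.47, 9.53, 9.69 and 9.42 in WAR N. The groups did not overlap, and Wistar N replicate 1 was the Wistar N array nearest to WAR N. The log2 fold change, 1.12 (SE 0.22, adjusted p = 0.0036 from limma, 2.18-fold), was the largest of the 10 genes in naïve rats. It was 1.37 without Wistar N replicate 1, and 0.77 (adjusted p = 0.258 from limma) and 1.47 (adjusted p = 0.0020 from limma) in the 2 label sets. The first of these sets holds that array.

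In stimulated rats the strains overlapped in *Slco1a4*, at 9.46 and 9.07 in Wistar S and 9.63, 9.63, 9.56, 9.10 and 9.03 in WAR S. Both Wistar S arrays lay inside the WAR S range. WAR S was higher by 0.13 (95% confidence interval -0.42 to 0.67). Of the 10 genes it had the largest difference between the strain effects, -0.996 (SE 0.33, unadjusted p = 0.0099 and adjusted p = 0.192, both from limma), which did not pass. Without Wistar N replicate 1 this difference was -1.24 and passed (adjusted p = 0.0018 from limma), where 20.4% of all genes passed. A difference in scale between the runs would enter this value and was not tested.

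*Slco1c1*, which brings thyroxine into the brain, *Slco2b1*, a carrier of steroid sulfates, and *Slc22a8*, which clears organic anions from the brain and the cerebrospinal fluid, did not pass in either comparison. *Slco1c1* was 9.22 and 9.36 in Wistar S and 9.27 to 10.02 in WAR S, and 9.30 to 9.63 in Wistar N and 9.54 to 9.95 in WAR N. Its log2 fold changes, 0.21 (95% confidence interval -0.15 to 0.58) and 0.22 (-0.09 to 0.53), were alike in size. *Slco2b1* was the one gene with a lower mean in WAR in both comparisons, by -0.08 (95% confidence interval -0.38 to 0.22) in stimulated and -0.32 (-0.57 to -0.07, adjusted p = 0.0699 from limma) in naïve rats. It was 7.53 and 7.47 in Wistar S and 7.18 to 7.51 in WAR S, and 7.45 to 7.77 in Wistar N and 6.94 to 7.47 in WAR N. The naïve interval left out 0, and the call was reached in 4 of 18 alternative settings, among them without Wistar N replicate 1 (adjusted p = 0.0295 from limma).

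*Slc22a8* was 8.15, 6.58, 6.75 and 6.57 in Wistar N and 7.14, 7.11, 7.49 and 7.93 in WAR N. Wistar N replicate 1 lay above every WAR N array and the other 3 lay below them all. With that array WAR N was higher by 0.41 (95% confidence interval -0.22 to 1.04; -0.23 in the first label set and 1.05, adjusted p = 0.0067 from limma, in the second), and by 0.79 (adjusted p = 0.0022 from limma) when it was left out. In stimulated rats it was 6.86 and 6.87 in Wistar S and 7.03 to 7.59 in WAR S, which did not overlap, with a log2 fold change of 0.37 (SE 0.35, exact permutation p = 0.0952). The same Wistar N array was also the highest of its group in the mean of 10 choroid plexus genes (6.06 against 5.80 to 5.88) and of 10 meningeal genes (7.03 against 6.64 to 6.75). These were not the only such lists. It was the highest for 24 endothelial genes (7.91 against 7.05 to 7.16) and 13 pericyte and smooth muscle genes (7.60 against 6.94 to 7.02). For astrocyte, cerebellar and red blood cell genes it was not the highest. The part of any of these tissues in its *Slc22a8* value was not tested.

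**Figure D2:**
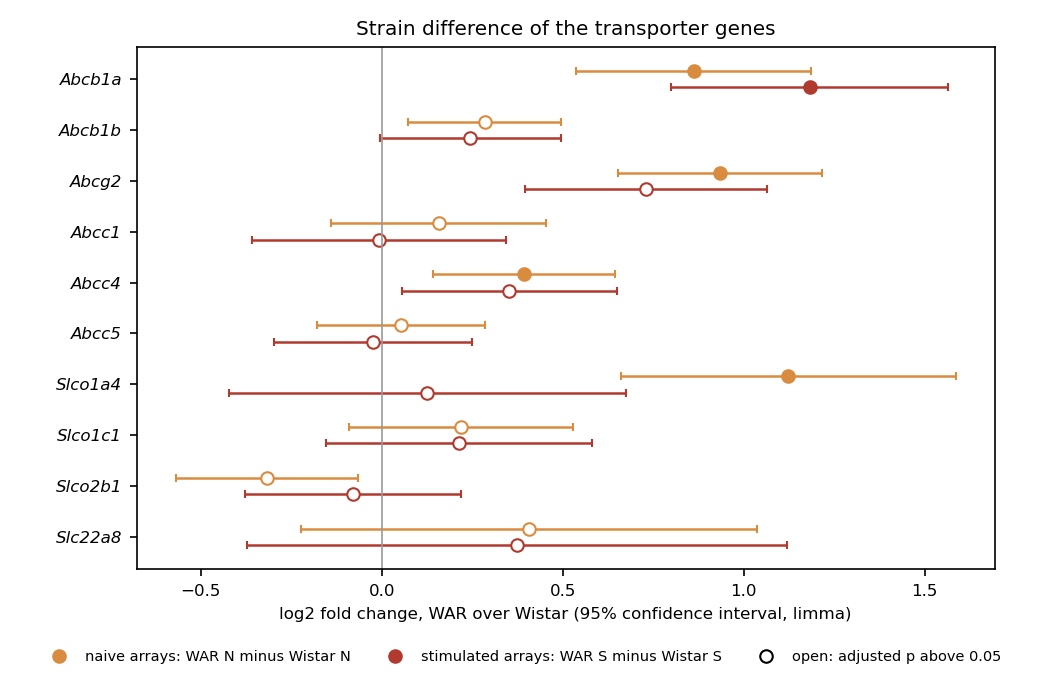
Log2 fold change of WAR over Wistar for each gene, in naïve arrays (orange) and stimulated arrays (red), with 95% confidence intervals from limma and filled points where the adjusted p was at most 0.05. *Abcb1a* is filled in both, at 0.86 and 1.18, and *Slco1a4* is the gene whose naïve and stimulated points lie farthest apart, at 1.12 and 0.13.

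Counted by overlap of the arrays, 5 of the 10 genes were higher in every WAR S array than in both Wistar S arrays (*Abcb1a*, *Abcb1b*, *Abcg2*, *Abcc4* and *Slc22a8*), where 12.4% of all genes were. In naïve rats this held for 3 (*Abcb1a*, *Abcg2* and *Slco1a4*), where it held for 7.93% of all genes, and for 4 without Wistar N replicate 1 (*Slc22a8* added), where it held for 21.7%. Without that array 6 genes passed the test in naïve rats, *Slc22a8* as higher and *Slco2b1* as lower in WAR beside the 4 named above, where 41.1% of all genes passed. The difference between the strain effects passed for 0 of the 10 in limma (15 of all genes, 0.103%), with 1 of the 10 at an unadjusted p under 0.05. As a mean over both runs, the strain effect passed for 5 genes, all higher in WAR, where 9.99% of all genes passed and 5.87% as higher. These were *Abcb1a* (1.02, adjusted p = 0.0003 from limma), *Abcg2* (0.83, adjusted p = 0.0004), *Slco1a4* (0.62, adjusted p = 0.0319), *Abcc4* (0.37, adjusted p = 0.0210) and *Abcb1b* (0.26, adjusted p = 0.0425). The first 2 of them passed in all 22 alternative settings, and *Slco1a4*, *Abcc4* and *Abcb1b* in 12 of 22, 21 of 24 and 8 of 22.

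Genes of endothelial identity and of tight junctions were set beside the transporters. Of the 24 measured, 20 had a log2 difference above 0 in stimulated and 23 in naïve rats. By the test, 2 were overexpressed in WAR S (*Itm2a*, an endothelial membrane protein gene, by 1.71, and *Tek*, the angiopoietin receptor, by 1.09) and 7 in WAR N, each against its Wistar group, where 0.214% and 11.6% of all genes were, and none was lower in either. The median log2 difference was 0.51 and 0.39. The mean of the list ran from 7.83 to 8.15 in WAR S against 7.35 and 7.37 in Wistar S, and from 7.61 to 8.04 in WAR N against 7.05 to 7.91 in Wistar N. In tissue RNA, more endothelial cells and more transcript per cell cannot be told apart. Among the defining genes, *Pecam1* differed by 0.75 and 0.68, the second of which passed (adjusted p = 0.0088 from limma), and *Cldn5*, the main claudin of the barrier, by 0.31 and 0.26, neither of which passed.

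When the mean of this list was taken away from each array, the transporters gave unlike values. *Abcb1a* was still higher in every WAR S array, by 0.64 (exact permutation p = 0.0476), and by 0.35 in naïve rats, where the groups then overlapped (exact permutation p = 0.0857). *Abcg2* differed by 0.19 in stimulated and 0.42 in naïve rats, with overlap in both. *Slco1a4* remained without overlap in naïve rats, at 0.61 (exact permutation p = 0.0286), and was at -0.42 in stimulated rats. Without Wistar N replicate 1, which was the highest Wistar N array by this list, the naïve differences were 0.23 for *Abcb1a*, 0.15 for *Abcg2* and 0.66 for *Slco1a4*, the last again without overlap. The other 7 genes had negative differences in both comparisons after the subtraction, from -0.11 for *Slc22a8* in naïve rats to -0.83 for *Slco2b1* in naïve rats, and *Slc22a8* was at 0.07 in naïve rats without Wistar N replicate 1. The subtraction takes the same slope for every gene, so a gene with no strain difference becomes lower in WAR by construction. The part of vessel content in the strain differences was not tested.

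**Figure D3:**
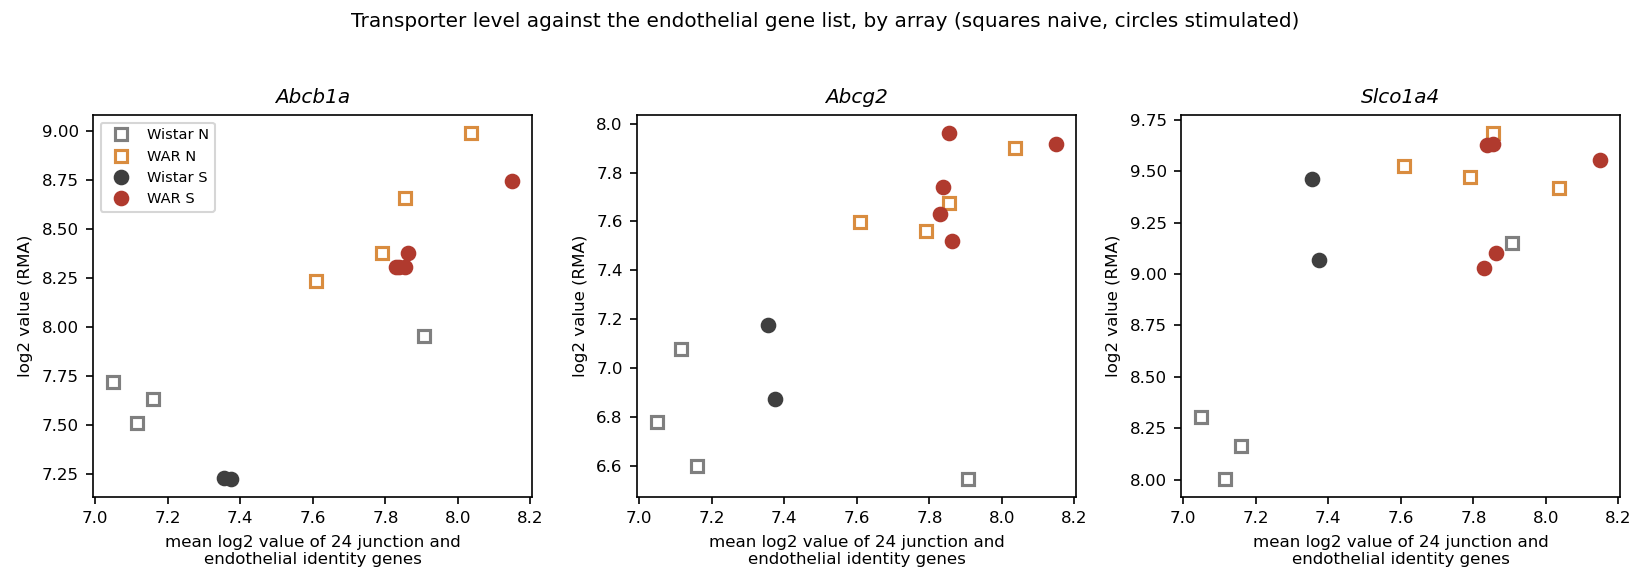
Log2 value of *Abcb1a*, *Abcg2* and *Slco1a4* (vertical) against the mean log2 value of the 24 endothelial and junction genes (horizontal) in each array, with open squares for naïve and filled circles for stimulated arrays, which were taken as normalized separately. Wistar N replicate 1, at 7.91 on the horizontal axis, sits among the WAR arrays by that mean while its *Abcg2* value, 6.54, is the lowest of the 8 naïve arrays.

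The transporters were next set against *Abcb1a* across the arrays of a run. Since the strains did not overlap in *Abcb1a* in either run, each array was taken as its deviation from its group mean, and the p-values come from exact permutation within groups, adjusted over 18 relations. In the 7 stimulated arrays, r was above 0 for 8 of the 9 other genes (median 0.34, from -0.16 for *Abcc5* to 0.96 for *Slco1c1*). *Slco1c1* (Pearson r = 0.96, permutation p = 0.05, Spearman rho = 0.77, permutation p = 0.075), *Slc22a8* (r = 0.95, permutation p = 0.05, rho = 0.74, permutation p = 0.0833) and *Abcc1* (r = 0.93, permutation p = 0.0167, rho = 0.75, permutation p = 0.0167) were the closest. No relation passed the adjustment, with a lowest adjusted permutation p of 0.15. With the endothelial list mean regressed out, r was 0.35 for *Slco1c1*, 0.55 for *Slc22a8* and 0.57 for *Abcc1*. WAR S replicate 3 was the highest array for *Abcb1a*, *Slco1c1*, *Slc22a8* and *Abcc1*, and without it 4 of the 9 were above 0, with r = 0.88 for *Slc22a8*, 0.69 for *Slco1c1* and 0.24 for *Abcc1*. WAR S replicates 1 and 2 had the same *Abcb1a* value and tied as the next array from the median. Without replicates 1 and 3, r was 0.86 for *Slco1c1*, 0.81 for *Slc22a8* and 0.47 for *Abcc1*, and without replicates 2 and 3 it was 0.72, 0.83 and 0.56.

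In the 8 naïve arrays, r was above 0 for 7 of the 9 (median 0.43), and *Slc22a8* (r = 0.78, permutation p = 0.0104, rho = 0.71, permutation p = 0.0486) and *Slco1c1* (r = 0.76, permutation p = 0.0608, rho = 0.67, permutation p = 0.115) again came first. The lowest adjusted permutation p was 0.15 here too. Without the 2 farthest arrays (WAR N replicates 2 and 4), r was 0.84 and 0.40, and 6 of the 9 were above 0. *Slco1a4* then had the highest r of the 9, 0.89, and *Abcg2* the lowest, -0.51, so the order was not kept. With all 8 naïve arrays, the remaining r values were 0.61 for *Slco2b1*, 0.52 for *Abcc4*, 0.43 for *Slco1a4*, 0.22 for *Abcb1b*, 0.11 for *Abcg2*, -0.06 for *Abcc1* and -0.33 for *Abcc5*. *Abcg2*, which also had a large strain difference, had a low r within groups, 0.34 in stimulated and 0.11 in naïve arrays (adjusted permutation p = 0.836 and 0.865). The endothelial list itself had r = 0.99 with *Abcb1a* in stimulated arrays (permutation p = 0.05, rho = 0.85, permutation p = 0.0833). In naïve arrays it had r = 0.72 (permutation p = 0.0087, rho = 0.71, permutation p = 0.0486). These p-values were not part of the adjustment. For the list, r was 0.88 without WAR S replicates 1 and 3 and 0.76 without WAR N replicates 2 and 4.

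**Figure D4:**
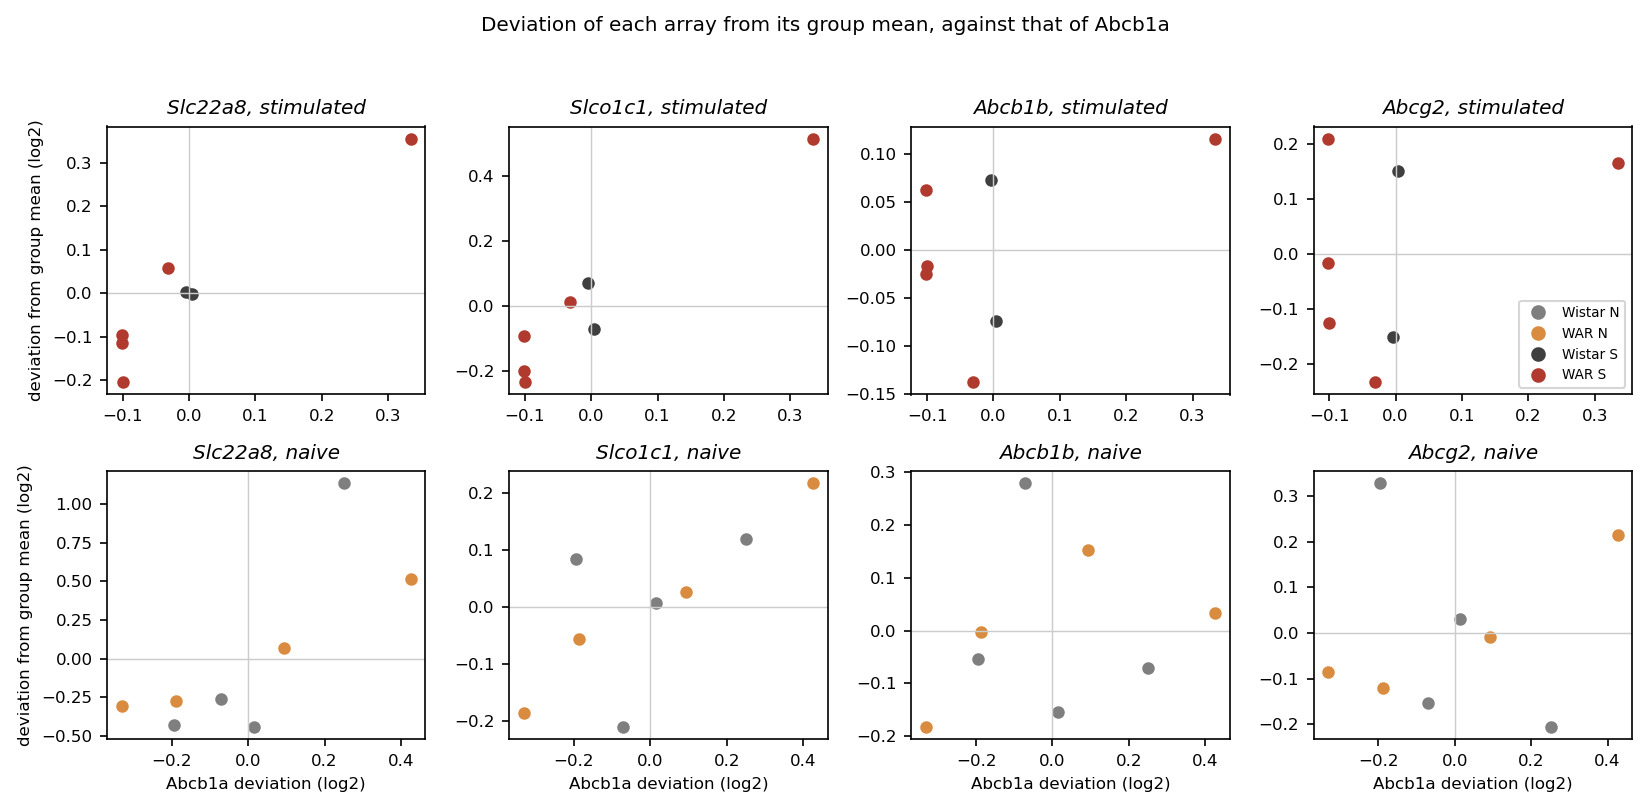
Deviation of each array from its group mean, in log2 units, for *Slc22a8*, *Slco1c1*, *Abcb1b* and *Abcg2* (vertical) against *Abcb1a* (horizontal), with the 7 stimulated arrays above and the 8 naïve arrays below and a point per array. In the upper panels 1 WAR S array, replicate 3, lies far to the right of the rest, and r for *Abcg2* is 0.34 in the upper and 0.11 in the lower row.

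Over all 15 arrays, the genes whose deviations from the group means were most like those of *Abcb1a* were *Cldn5* (r = 0.93), the barrier claudin, *Osmr* (0.92), a cytokine receptor subunit, *Rapgef3* (0.92), a cyclic AMP sensor, *Tln1* (0.91), which links integrins to the cytoskeleton, and *Atp5mg* (0.90), a subunit of ATP synthase. These r values describe 15 arrays in 4 groups and were picked as the highest of 14505. Among the transporters, *Slc22a8* (0.78) ranked 102 and *Slco1c1* (0.75) ranked 154, while *Abcg2* (0.19) ranked 5589 and *Abcb1b* (0.28) ranked 4369.

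Related transporters were read against the same background, 0.414% of all genes passing in stimulated and 20.9% in naïve rats. Of 15 other drug and lipid ABC transporters, none passed in stimulated and 1 in naïve rats, *Abca2*, a lipid transporter of oligodendrocytes, at -0.59 (adjusted p = 0.0084 from limma). Of 16 other organic ion transporters, *Slc47a1*, an exporter of organic cations, was lower in WAR S at -0.68 (adjusted p = 0.0055 from limma), and *Slc29a1*, a nucleoside transporter, was higher in WAR N by 0.19 (adjusted p = 0.0465). *Slc47a1* was dim, at a mean of 5.82 (SD 0.30) in Wistar S and 5.13 in WAR S, where *Gabra6* averaged 5.41 over all arrays. Its naïve difference was -0.11. The medians were 0.00 and 0.01 for the ABC transporters and -0.02 and 0.04 for the organic ion transporters. Of 16 nutrient transporters of the barrier, the thiamine transporter gene *Slc19a3* was higher in both comparisons, by 2.46 and 2.57 (adjusted p = 0.0212 and 0.0008 from limma), while *Lrp1*, a lipoprotein receptor, and *Slc6a6*, the taurine transporter, were lower in WAR N, at -0.61 and -0.39. *Slc2a1*, the glucose transporter of the barrier, differed by 0.28 and 0.06 and did not pass.

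Of 24 genes known to regulate efflux transporters, none passed in stimulated rats. In naïve rats 3 were higher and 2 lower in WAR, where 20.9% of all genes passed. The caveolin gene *Cav1* was higher by 1.33 (adjusted p = 0.0023 from limma), *Lef1*, a transcription factor of the Wnt pathway, by 0.63 (adjusted p = 0.0110) and *Nfe2l2*, the factor of the oxidative stress response, by 0.38 (adjusted p = 0.0382). *Grin1*, the obligatory NMDA receptor subunit, was lower, at -0.48 (adjusted p = 0.0368). The pregnane X receptor gene *Nr1i2* differed by 0.10 and 0.05 and the constitutive androstane receptor gene *Nr1i3* by -0.01 and 0.01, and none of these passed. The medians were 0.00 and 0.09.

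Markers of other cells also differed between the strains and stand beside the transporter values, with 0.414% of all genes passing in stimulated and 20.9% in naïve rats. Of 13 pericyte and smooth muscle genes none passed in stimulated rats (median 0.11) and 2 were higher in naïve WAR (median 0.19), among them *Rgs5* by 1.71. Of 12 astrocyte genes none passed in stimulated rats (median -0.25) and 4 were lower in naïve WAR (median -0.36). Of 11 microglia and macrophage genes, 1 passed as higher in WAR after stimulation, *P2ry12*, by 0.89, and 5 in naïve rats. Oligodendrocyte genes moved both ways in naïve rats, with 1 of 10 higher and 1 lower, and 5 of 14 neuron genes and 1 of 7 cerebellar genes were lower in naïve WAR, with none of these 3 lists called in stimulated rats. Of 4 red blood cell genes, *Hbb* was lower in both comparisons, at -1.17 and -0.67. Of 10 choroid plexus genes 1 was higher in naïve WAR (*Kcne2*, 0.41), of 10 meningeal genes 1 was higher (*Dcn*, 1.45) and 1 lower (*Col1a2*, -0.33), and no gene of these lists passed in stimulated rats. The part of these cells in the transporter differences was not tested.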

How the data were processed

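Gene expression was measured on Affymetrix rat arrays (Gene 1.0 ST). The values deposited by the authors are on a log2 scale and come from RMA, a method that removes background, quantile normalizes and summarizes probes into probe sets (software version not given in the sources used here). All 15 sample columns were used. The deposited values did not have one distribution within a run. Array medians ran from 7.006 to 7.075 in Wistar N and from 7.085 to 7.1445 in WAR N. They ran from 7.21 to 7.22 in Wistar S and from 7.21 to 7.27 in WAR S. Probe sets were named through the platform annotation, 15310 of 29214 having a single symbol, and the brightest by mean was kept per gene. Strains were compared with limma (version 3.58.1, under R version 4.3.3) using lmFit with 4 group means over 15 arrays and eBayes (Benjamini-Hochberg adjustment over 14506 genes, threshold 0.05) and with two-sided exact permutation tests. The step was tested on simulated data with independent noise for each gene and array. That setting holds no array-wide deviation such as that of Wistar N replicate 1, so it cannot show how the step handles one. The significance analysis of microarrays used by the study was not run, since it permutes sample labels, and its thresholds (fold change of at least 2 with an unadjusted p of 0.05) were an alternative. Other alternatives covered the samples in the model, label set, replicate block, variance model, array weights, cyclic loess, dim genes, probe sets, an adjusted p of 0.10 and each array left out. Leaving out Wistar N replicate 1 and WAR S replicate 3 was also read as a check of every count after seeing the data, as were the endothelial subtraction without the first of them and the tied choice of farthest arrays. The 10 genes, the gene lists and the rule for genes named (all 10 members, up to 4 called genes of each list by smallest p, the 5 most like *Abcb1a*, and genes a result turns on) were chosen with earlier results of these data known. *Slc2a1*, *Pecam1*, *Nr1i2* and *Nr1i3* were named under the last of these. The precision is set by the few arrays, above all the 2 of Wistar S. The methods give 7 WAR and 3 Wistar stimulated rats against 5 and 2 in the labels, and the deposit's general notes speak of stimulation for every animal, and groups here follow each array's own label. The hamster data are not analysed here.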

Additional observations from a re-analysis of the deposited data

Results flagged for a closer look

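In 4 of 30 gene and group pairs of 4 or 5 arrays, an array lay farther from its group than a Dixon test at 95% allows, where chance gives 1.5. *Abcb1a* was 8.74 in WAR S replicate 3 and 8.31 to 8.38 in the other WAR S arrays. *Abcc1* was 9.03 in the same array and 8.92 to 8.94 in the others. *Slco2b1* was 7.18 in WAR S replicate 5, below the 7.43 to 7.51 of the others. *Slc22a8* was 8.15 in Wistar N replicate 1, above the 6.57 to 6.75 of the other Wistar N arrays.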

How the results depend on the processing

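Between WAR S and Wistar S, 1 of the 10 genes passed, against 2 with the other groups left out of the model (*Abcc4* added, 1.89% of all genes) or at an adjusted p of 0.10 (*Abcg2* added, 0.8% of all genes), 4 with array weights (9.88%), 0 with the replicate number as a block (0.11%), and 0 to 1 when an array was left out, 0 being without either Wistar S array. Between WAR N and Wistar N, 4 passed. With the other groups left out of the model 3 passed (*Abcc4* lost, adjusted p = 0.141 from limma), where 6.06% of all genes did. In label set 1, which holds Wistar N replicate 1, 1 passed (*Abcg2*, 1.5% of all genes). At a fold change of at least 2 with an unadjusted p of 0.05, 1 passed (*Slco1a4*, 1.76%). When an array was left out 3 to 6 passed, 6 being without Wistar N replicate 1 (41.1%). The difference between the strain effects passed for 1 gene, *Slco1a4*, with array weights (23.1% of all genes) and for 0 to 1 when an array was left out. The mean strain effect passed for 3 with the replicate block (6.57%) and 1 by the fold rule (*Abcb1a*, 0.283%). It passed for 3 to 6 when an array of a group other than Wistar S was left out. The 6 were without Wistar N replicate 1, where 4264 of all 14506 genes passed, against 1449 with it. Fewer genes passed without a Wistar S array, which leaves 1 array in that group. Without Wistar S replicate 1 and replicate 2, the mean effect was 1.02 and 1.02 for *Abcb1a* and 0.91 and 0.76 for *Abcg2*. It was 0.72 and 0.53 for *Slco1a4*, 0.39 and 0.36 for *Abcc4* and 0.23 and 0.30 for *Abcb1b*. Small log2 differences changed sign. For stimulated *Abcc1* it was 0.022 with the label set as a block and -0.031 to 0.015 when an array was left out. For stimulated *Abcc5* it was 0.030 with the label set as a block, 0.015 with the replicate block, 0.018 with array weights, 0.055 in label set 1 and -0.064 to 0.034 when an array was left out. Stimulated *Slco1a4* ran from -0.071 to 0.32 when an array was left out. Naïve *Abcc5* was -0.11 in label set 2 and -0.016 to 0.14 when an array was left out, and naïve *Slc22a8* was -0.23 in label set 1. The causes were not tested. The count of genes with a positive r to *Abcb1a* in stimulated arrays was 8, against 5 by Spearman, 4 with the endothelial list regressed out and 4 to 9 when an array was left out.

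Same-numbered arrays did not deviate together (r of 0.03 and -0.05 in stimulated and -0.31 to 0.06 in naïve pairs). Deviations from a mean of few arrays depend on each other, and those of the Wistar S arrays are mirror images. These r values therefore cannot settle whether the replicate numbers pair the samples. Genes called over the whole table numbered 60 between WAR S and Wistar S, against 274 without the other groups in the model, 16 with the replicate block, 1433 with array weights, 14 in label set 1 and 7 to 50 with an array left out. Between WAR N and Wistar N they numbered 3037, against 879 without the other groups, 2490 with the block, 4667 with array weights, 217 in label set 1, 5355 with all probe sets tested and 1987 to 5968 with an array left out. The difference between the strain effects ran from 0 to 3353 around 15, and the mean strain effect from 340 to 4547 around 1449. Without a Wistar S array the lone array is assumed to vary like the other groups. The deposit gives no signal over background, so the limit it sets for dim genes is unknown.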

Other observations

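Genes beside the transporters on the reference assembly were read against the 0.414% of all genes that passed in stimulated and the 20.9% in naïve rats. Of the 10 measured genes around *Abcb1a*, none passed between WAR S and Wistar S, with log2 differences from -0.40 to 0.24, and 3 passed between WAR N and Wistar N, where *Crot*, a peroxisomal acyltransferase gene, was higher by 0.55, *Dmtf1*, a transcription factor gene, was higher by 0.44, and *Steap2*, a metalloreductase gene, was lower at -0.44. *Abcb4*, the phospholipid pump gene of the same cluster, differed by -0.03 and -0.07. Around *Abcg2*, *Slco1a4* and *Abcc4*, 0 of 10 genes passed in stimulated and 1 of 10 in naïve rats in each case. In the count beside *Slco1a4*, *Slco1c1* is itself a transporter described above, and *Abcb1b* is in the count beside *Abcb1a*.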
